A study of Mus musculus with 2 samples.

Results

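The miR-15, miR-16, miR-195 and miR-497 genes were examined in microRNA sequencing libraries of left cerebral cortex from adult B6CASTF1/J mice. B6CASTF1/J mice are F1 hybrids that carry a C57BL/6J and a CAST/EiJ genome. The members were defined by gene symbol, as Mir15a, Mir16-1, Mir15b, Mir16-2, Mir195a and Mir497, with earlier results of these data known. All 6 were found among the 2202 annotated miRNA genes of the files. The labels give 1 group of 2 biological replicates aged 18 to 20 months, made from total RNA with a size range under 30 nucleotides. They name no treatment and no allele beyond the strain. Both libraries carry the same donor identifier with different biosample identifiers, and the labels state the sex as female in one field and male in another. Apart from the biological replicate numbers, nothing in the labels says that the libraries came from separate animals, so the spread between them may be technical. With 1 library on each side of any difference between replicates, no test of that difference was possible and no p-value is given.

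These genes belong to a family of miRNAs that share a seed, the stretch near the 5′ end through which a miRNA pairs with its target mRNAs. Members of the family are known to repress cyclins and other drivers of the cell cycle, and miR-15a and miR-16 also repress the survival factor Bcl2. In humans the DLEU2 locus, which carries miR-15a and miR-16, is often lost in chronic lymphocytic leukaemia, and in mice miR-195 rises in the heart after birth as heart muscle cells stop dividing.

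The mature sequences are shown because they decide which reads can be told apart. They were taken from RefSeq (GRCm38.p6), which held mature sequences for all 6 genes and hairpins for 5 of them, all but Mir15a. Capitals mark the seed, bases 2 to 8, which was identical in the 5p strands of all 6 genes. Mir16-1 and Mir16-2 give the same 5p sequence, so 5 sequences cover the 6 genes.
miR-15a-5p: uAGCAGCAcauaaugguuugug
miR-15b-5p: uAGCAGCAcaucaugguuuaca
miR-16-5p: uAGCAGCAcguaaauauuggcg
miR-195a-5p: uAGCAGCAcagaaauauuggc
miR-497a-5p: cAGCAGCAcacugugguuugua

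Positions are counted from 1 at the 5′ end. miR-15a-5p and miR-15b-5p were identical at 18 of 22 positions and differed by A12C, G20A, U21C and G22A, with the base of miR-15a first. miR-16-5p and miR-195a-5p were identical at 19 of 21 positions and differed by G10A and U11G, with the base of miR-16 first. miR-497a-5p was the most divergent from miR-195a-5p, the product of its neighbour, of the pairs compared, at 12 of 21 identical positions. By sequence miR-195a was thus closer to miR-16 than to its cluster partner.

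The 3p strands of the Mir16 genes are shown because they distinguish these genes where the 5p strand cannot. Capitals again mark bases 2 to 8, which differ between them.
miR-16-1-3p: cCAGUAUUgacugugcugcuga
miR-16-2-3p: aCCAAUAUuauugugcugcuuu

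The Mir16 hairpins shared a stretch of 23 nucleotides, the longest that either shared with any hairpin in the RefSeq table, given here in capitals within each hairpin. Mir16-1 lies on chromosome 14 and Mir16-2 on chromosome 3.
Mir16-1: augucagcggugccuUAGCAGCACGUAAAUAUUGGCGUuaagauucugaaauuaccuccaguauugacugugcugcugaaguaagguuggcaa
Mir16-2: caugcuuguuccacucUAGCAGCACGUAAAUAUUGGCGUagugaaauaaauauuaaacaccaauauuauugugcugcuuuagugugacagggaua

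The shared stretch held the whole of miR-16-5p and 1 further base. A read that lies within it has 2 places in the genome, and the files list reads with several places apart from the gene counts. The counts of Mir16-1 and Mir16-2 therefore leave out reads of miR-16-5p that lie within the stretch, and how many was not tested. The levels of these 2 genes are thus not the level of miR-16-5p. Among the 1005 hairpins of the RefSeq table, those of Mir15b, Mir195a and Mir497 shared at most 11, 16 and 12 nucleotides with a hairpin elsewhere. These lay below the 20 nucleotides taken as shared. The 16 nucleotides of Mir195a were shared with Mir195b. The table had no hairpin of Mir15a, so stretches shared between that hairpin and those of other genes, Mir15b included, were not tested. Its mature sequences were compared, and neither lay whole in any hairpin of the table. From the 5′ end, miR-15a-5p matched miR-15b-5p over 11 bases.

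The genes form 3 clusters, and coordinates are those of mm10 with GENCODE M21. Mir15a (ENSMUSG00000093007.1, chromosome 14, 61632027 to 61632110, minus strand) and Mir16-1 (ENSMUSG00000092995.1, chromosome 14, 61631880 to 61631972, minus strand) lie 54 nucleotides apart within Dleu2, a long non-coding RNA gene on the same strand. Mir15a lies in an intron of all Dleu2 transcripts that span it, while 13 nucleotides of Mir16-1 overlap an exon of one Dleu2 transcript. Mir15b (ENSMUSG00000065580.2, chromosome 3, 69009772 to 69009835, plus strand) and Mir16-2 (ENSMUSG00000065606.1, chromosome 3, 69009902 to 69009996, plus strand) lie 66 nucleotides apart in an intron of Smc4, which encodes a subunit of condensin, the complex that compacts mitotic chromosomes. Mir497 (ENSMUSG00000105220.1, chromosome 11, 70234717 to 70234800, plus strand) and Mir195a (ENSMUSG00000065411.2, chromosome 11, 70235042 to 70235135, plus strand) lie 241 nucleotides apart and in no annotated host gene. The nearest gene other than a miRNA gene is 0610010K14Rik on the opposite strand, 70 nucleotides from Mir195a. Mir497b is annotated on the strand opposite Mir497 and covers all 84 nucleotides of it.

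**Figure D1:**
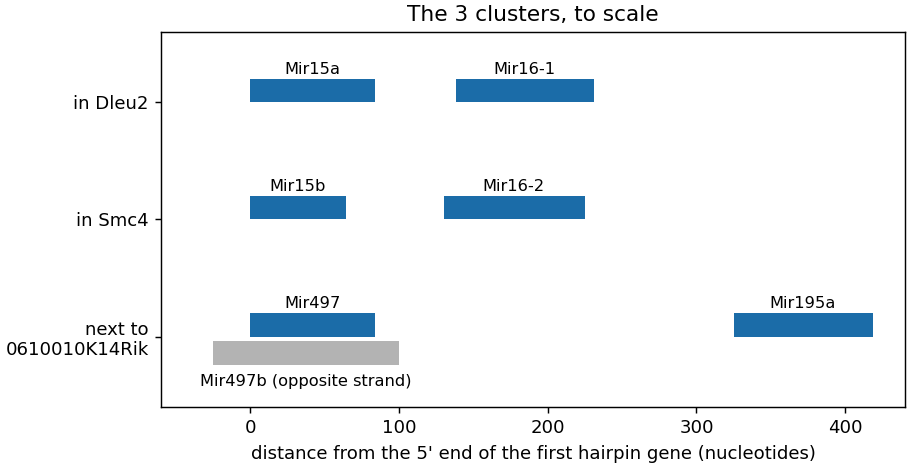
Blue bars are the hairpin genes of each cluster, drawn to scale along the direction of transcription, with the distance from the first hairpin in nucleotides on the x axis; the grey bar is Mir497b on the opposite strand. The gaps are 54, 66 and 241 nucleotides, and Mir497b spans the whole of Mir497.

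Sense counts of miRNA genes numbered 5166667 in replicate 1 and 4459993 in replicate 2, and a count of 0 allows a level of at most 0.581 CPM in the first and 0.673 CPM in the second library. Levels are CPM, the sense count per 1000000 sense counts of all miRNA genes, and are not divided by hairpin length, since reads of this size span a mature strand and not a hairpin. A gene counted as expressed from 2 CPM upwards in each library, which held for 409 of the 2202 genes, with a median of 88.9 CPM. As a check of the tissue, the neuronal list summed to 36826 CPM in replicate 1, against 32458 CPM in replicate 2, with 8 of 11 genes expressed, and the oligodendrocyte list to 3952 and 3864 CPM with 2 of 4 expressed and Mir219b at 0. The 3 genes of the defining neuronal miRNA miR-124 were near the limit of detection, at 4.06 CPM or less in either library. Reads that fit several of these genes would be listed apart from the gene counts. These levels may therefore leave out reads of miR-124, and how many was not tested.

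All 6 genes were expressed, and the mean of each lay above the median of expressed genes. Together they held 45396 counts in replicate 1 (8786 CPM) and 9579 in replicate 2 (2148 CPM), or 0.879% and 0.215% of all sense counts. The mean was 5467 ± 4694 CPM (SD, n = 2), so the spread of the libraries was nearly as large as the level itself. Mir195a held the largest share of these counts in both libraries.

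Of the cluster on chromosome 11, Mir195a had 30764 counts in replicate 1 and 3833 in replicate 2. Its level was 5954 CPM in replicate 1 (95% exact interval 5888 to 6021) and 859.4 CPM in replicate 2 (832.4 to 887.1). It ranked 32nd of all genes in replicate 1 and 94th in replicate 2. Mir497 had 5464 and 2208 counts. Its level was 1058 CPM in replicate 1 (1030 to 1086) and 495.1 CPM in replicate 2 (474.6 to 516.2). Both genes were higher in replicate 1. Such intervals cover counting error only, and for how many expressed genes they fail to overlap was not computed.

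Of the Dleu2 cluster, Mir15a had 5639 counts in replicate 1 and 1638 in replicate 2. Its level was 1091 CPM in replicate 1 (1063 to 1120) and 367.3 CPM in replicate 2 (349.7 to 385.5). Mir16-1 had 1659 and 1009 counts, at 321.1 CPM (305.8 to 336.9) in replicate 1 and 226.2 CPM (212.5 to 240.6) in replicate 2. Replicate 1 was the higher library for both genes, by a wider margin for Mir15a.

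Of the Smc4 cluster, Mir15b had 1322 counts in replicate 1 and 436 in replicate 2, at 255.9 CPM (242.3 to 270.0) and 97.8 CPM (88.8 to 107.4). Mir16-2 had 548 and 455 counts, at 106.1 CPM in replicate 1 (97.4 to 115.3) and 102.0 CPM in replicate 2 (92.9 to 111.8). The intervals of Mir16-2 overlapped between the libraries.

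**Figure D2:**
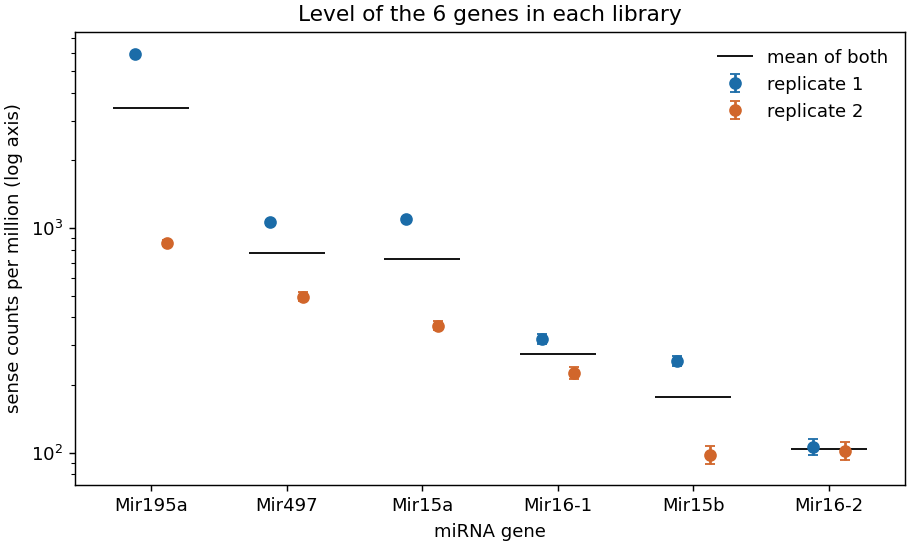
Sense counts per 1000000 (CPM) on a log axis for each gene, in order of their means; blue points are replicate 1, orange points replicate 2, error bars exact 95% intervals of counting error (smaller than the point where not seen), and black lines the mean. Mir195a stands at 5954 CPM in replicate 1, against 859.4 CPM in replicate 2, while the points of Mir16-2 nearly coincide.

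By mean level the order was Mir195a (3407 ± 3603 CPM), Mir497 (776.3 ± 397.7 CPM), Mir15a (729.3 ± 512.1 CPM), Mir16-1 (273.7 ± 67.1 CPM), Mir15b (176.8 ± 111.8 CPM) and Mir16-2 (104.0 ± 2.86 CPM), each as mean ± SD of the 2 libraries. No gene differed from its neighbour in this order by more than the larger of their SDs. Only between Mir15a and Mir16-1 did the ranges of neighbours not overlap. Mir497 and Mir15a changed places between libraries, with Mir15a higher in replicate 1 and Mir497 higher in replicate 2. The order of the lowest pair also turned, with Mir15b above Mir16-2 in replicate 1 and below it in replicate 2. The order among the 6 genes is further limited by the reads of miR-16-5p described above, which bear on Mir16-1 and Mir16-2.

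Likeness of pattern to other genes could not be measured over 2 libraries, so the genes ranked beside the members by mean level are given. Mir423 stood 1 rank above Mir195a, with 6199 CPM in replicate 1, against 909.0 CPM in replicate 2, a gap between the libraries like that of Mir195a. Mirlet7f-2 stood 1 rank below at 3001 and 3772 CPM and was higher in replicate 2. Mir497 lay between Mir130a (779.1 ± 118.6 CPM) and Mir540 (754.5 ± 40.0 CPM), and Mir15a between Mir1843b (738.1 ± 61.2 CPM) and Mir381 (663.1 ± 313.1 CPM). Mir16-1 lay between Mir429 (274.5 ± 319.4 CPM) and Mir351 (272.2 ± 190.2 CPM), Mir15b between Mir296 (177.2 ± 73.4 CPM) and Mir203 (175.9 ± 138.7 CPM), and Mir16-2 between Mir505 (104.4 ± 68.6 CPM) and Mir325 (103.3 ± 8.96 CPM).

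The make-up of the summed counts differed between the libraries. Mir195a held 67.8% of the counts of the 6 genes in replicate 1 (67.3% to 68.2%) and 40.0% in replicate 2 (39.0% to 41.0%). Mir497 held 12.0% in replicate 1 and 23.1% in replicate 2. Each of the other 5 genes took a larger share in replicate 2, where Mir195a took less. Mir15a held 12.4% and 17.1%, Mir16-1 held 3.65% and 10.5%, Mir15b held 2.91% and 4.55%, and Mir16-2 held 1.21% and 4.75%.

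**Figure D3:**
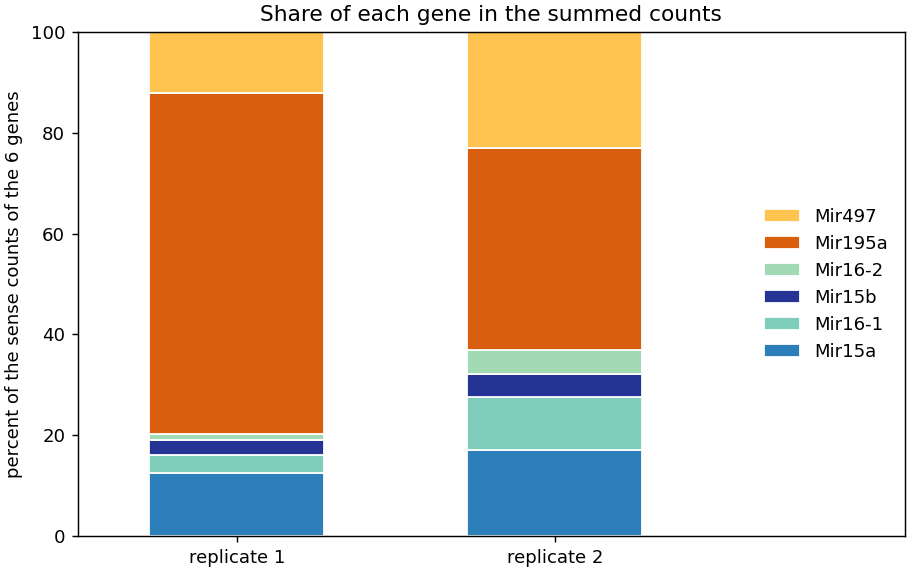
Bars stack the percent of the summed sense counts of the 6 genes held by each gene, for replicate 1 and replicate 2. The orange segment of Mir195a covers 67.8% of the bar in replicate 1 and 40.0% in replicate 2.

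Differences between the libraries were set on TMM-scaled totals, with 0.5 added to each count. Compared with plain totals, TMM lowered every log2 ratio of replicate 1 to replicate 2 by 0.13. On this scale the log2 ratio was 2.66 for Mir195a (6.33-fold), 1.44 for Mir15a (2.72-fold), 1.26 for Mir15b (2.39-fold), 0.97 for Mir497 (1.95-fold), 0.38 for Mir16-1 (1.30-fold) and -0.07 for Mir16-2. Of the 6 genes, 3 (Mir195a, Mir15a and Mir15b) thus lay over 2-fold higher in replicate 1, as did 16.1% of the 409 expressed genes. None of the 6 lay over 2-fold higher in replicate 2, as did 8.07% of expressed genes, and in either direction the share of expressed genes was 24.2%. The median log2 ratio of the members was 1.11, beside 0.04 over all expressed genes. Ranked by this ratio among the 409 genes, Mir195a was 10th, Mir15a 33rd, Mir15b 41st, Mir497 71st, Mir16-1 152nd and Mir16-2 228th. Mir16-2 changed direction with the scaling, with a log2 ratio of 0.06 on plain totals, and Mir497 passed 2-fold on plain totals, at 1.09. The summed counts had a log2 ratio of 1.90, or 1.01 without Mir195a.

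**Figure D4:**
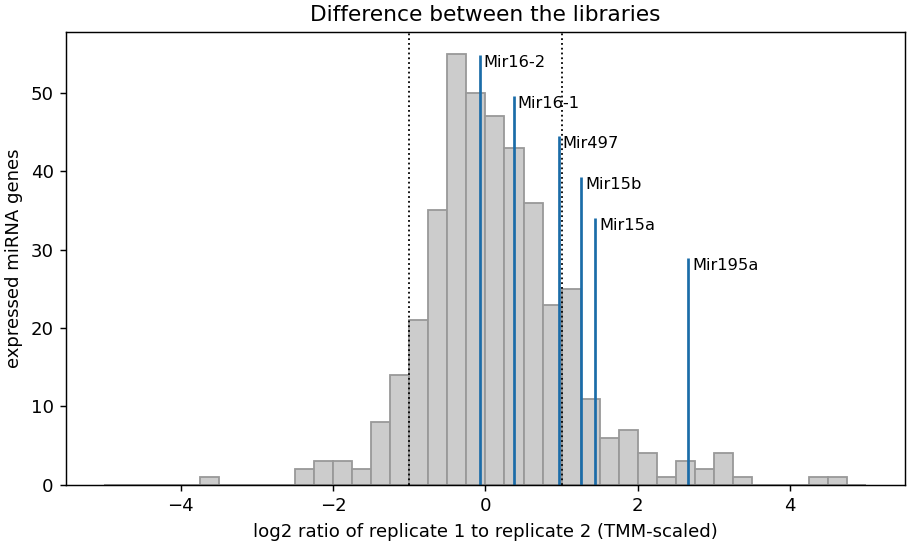
Grey bars count the 409 expressed miRNA genes by their log2 ratio of replicate 1 to replicate 2 on TMM-scaled totals; blue lines mark the 6 genes (their heights have no meaning) and dotted lines mark 2-fold. Mir195a, Mir15a and Mir15b lie beyond the upper line, Mir497 just inside it, and both Mir16 genes near the middle.

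For the neuronal list, the log2 ratio of the sums on TMM-scaled totals was 0.05. Of its 8 expressed genes, 2 were higher in replicate 1, and none was over 2-fold apart. For the oligodendrocyte list the log2 ratio of the sums was -0.10, and none of its 2 expressed genes was over 2-fold apart. Markers of some other cell types differed between the libraries. Of the 7 genes of the epithelium list, all were expressed, 6 were over 2-fold higher in replicate 1, and 1, Mir203, was over 2-fold higher in replicate 2 (77.8 CPM in replicate 1, against 274.0 CPM in replicate 2). The list summed to 1555 CPM in replicate 1, against 398.0 CPM in replicate 2. The endothelial gene Mir126a was at 21256 and 10411 CPM, and the red cell list, with 3 of 3 annotated genes expressed, at 122.1 and 71.5 CPM. Towards replicate 2 lay both mural cell genes, which summed to 5077 CPM in replicate 1, against 9896 CPM in replicate 2. The microglia and leukocyte list, with 6 of 6 expressed, was at 1941 and 2008 CPM, most of it Mir150 (1286 and 1154 CPM). Its other 5 genes were higher in replicate 2, Mir142 and Mir223 by over 2-fold, with log2 ratios of -1.05 and -1.17. Apart from Mir219b, no annotated gene of these lists was at 0. In a bulk sample, fewer cells of a type and less RNA per cell cannot be told apart. The part of any of these in the ratios of the members was not tested.

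Within each cluster, depth cancels and the ratio of both genes can be read in each library. Mir15a had 3.40 times the counts of Mir16-1 in replicate 1 and 1.62 times in replicate 2, a mean log2 ratio of 1.23 ± 0.75 (SD, n = 2). Mir15b had 2.41 times the counts of Mir16-2 in replicate 1 and 0.958 times in replicate 2, a mean log2 ratio of 0.60 ± 0.94. Mir195a had 5.63 times the counts of Mir497 in replicate 1 and 1.74 times in replicate 2, a mean log2 ratio of 1.64 ± 1.20. The miR-15 gene thus exceeded the miR-16 gene beside it in both libraries at Dleu2 and in replicate 1 alone at Smc4, and this comparison carries the limit on reads of miR-16-5p. With the gene of higher mean level first, the ratio was higher in replicate 1 in all 3 clusters, by 1.07, 1.33 and 1.70 on the log2 scale. The shared direction depends on this order. Mir195a lies downstream of Mir497, whereas Mir15a and Mir15b lie upstream of their partners, so in order of transcription the chromosome 11 ratio would be lower in replicate 1. The values of the Dleu2 and Smc4 clusters carry the same limit on reads of miR-16-5p. Among 65 pairs of neighbouring expressed miRNA genes on the same strand, at most 1000 nucleotides apart, the ratio differed over 2-fold between the libraries in 25, or 38.5%, the 3 member pairs included. Of the 62 other pairs, 20 differed at least as much as Mir15a and Mir16-1, 13 as much as Mir15b and Mir16-2, and 8 as much as Mir195a and Mir497.

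**Figure D5:**
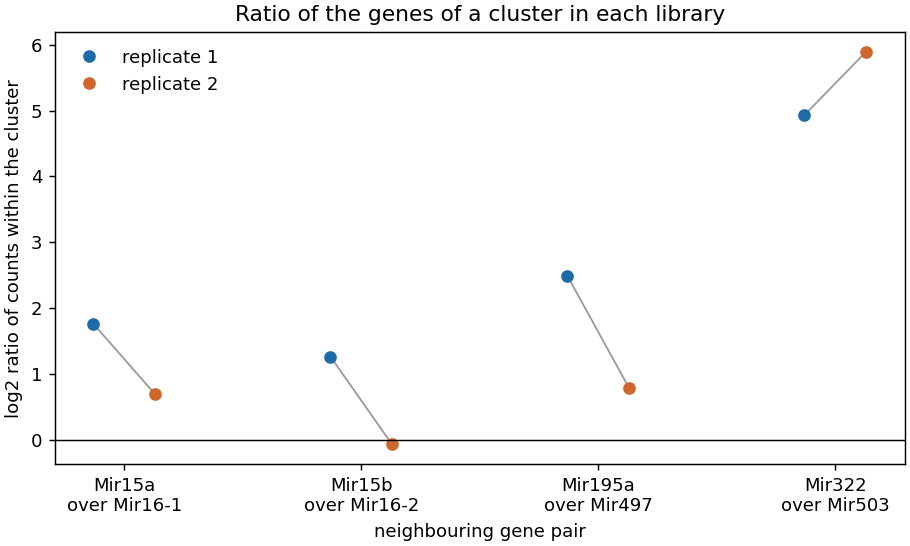
Points are the log2 ratio of the counts of neighbouring genes in replicate 1 (blue) and replicate 2 (orange). The gene of higher mean level is set over the other, for the 3 clusters and for Mir322 over Mir503. The ratio is lower in replicate 2 in the 3 clusters, reaching -0.06 for Mir15b over Mir16-2, and higher in replicate 2 for Mir322 over Mir503.

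The seed of the members was found in 11 mature sequences of 1738 in the RefSeq table, from 11 genes, of which 5 are not members. Of these 5, Mir322 was expressed and the others were not. The sequences below show how the relatives continue after the seed, which is in capitals; miR-503 is the product of the gene beside Mir322 and has another last seed base.
miR-322-5p: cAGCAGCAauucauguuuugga
miR-195b: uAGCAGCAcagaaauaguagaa
miR-6353: uAGCAGCAcguauuuauccuauu
miR-503-5p: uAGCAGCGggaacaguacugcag

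Mir322 lies on the X chromosome (53054255 to 53054349, minus strand), 200 nucleotides from Mir503, and its product is the mouse counterpart of human miR-424. Mir322 had 1875 counts in replicate 1 and 3526 in replicate 2, at 362.9 CPM (346.7 to 379.7) and 790.6 CPM (764.7 to 817.1). Unlike Mir195a, Mir15a and Mir15b, it was higher in replicate 2, with a log2 ratio of -1.25. Mir503 had 61 and 59 counts, at 11.8 and 13.2 CPM, with overlapping intervals. Mir322 had 30.7 times the counts of Mir503 in replicate 1 and 59.8 times in replicate 2.

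The remaining relatives were at or near 0. Mir195b, on chromosome 2, had 1 count in replicate 1 and 0 in replicate 2, against 30764 and 3833 for Mir195a. Mir6342, Mir6353 and Mir6419 had 0 counts in both libraries. Mir1907, also counted with this extended family, had 1 count in each library. The RefSeq table held no mature sequence of Mir1907, so its seed was not compared. Mir322 in replicate 2 thus stood beside Mir195a, which had 859.4 CPM there, whereas in replicate 1 Mir195a was far above it.

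Mir497b, opposite Mir497, had 0 sense counts in both libraries. The table gave Mir497b 5464 opposite-strand counts in replicate 1 and 2208 in replicate 2, exactly the sense counts of Mir497. They are the same reads counted from the other gene's side. Without strand, these reads were ambiguous and Mir497 had 0 counts in both libraries. The other 5 members had equal counts with and without strand and 0 opposite-strand counts in both libraries.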

How the data were processed

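Small RNA libraries of 2 biological replicates were analysed. The authors deposited raw read counts for each miRNA gene without normalization, on mm10 with GENCODE M21 per the file descriptions. Which aligner and counter made them is not given in the sources used here. Of the 3 count columns in a table, column 3 of the file was taken as sense. Totals leave out 4 lines of reads not counted to any gene, which held 65.2% (replicate 1) and 65.1% (replicate 2) of all reads. These include reads with several places in the genome, at 41.8% (replicate 1) and 46.4% (replicate 2) of all reads. Such reads can come from miRNA genes. Reads with CAST variants may have been lost in placement, which was not tested.

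Symbols were matched to GENCODE M21 by gene identifier. CPM is the sense count per 1000000 sense counts; intervals of counts are exact (Clopper-Pearson, 95%, scipy 1.17.1), and limits use 3 counts. Both cover counting error only, since PCR copies of a molecule could not be told apart. Log2 ratios used TMM-scaled totals over all genes (edgeR 4.0.16); the calculation was checked on simulated counts with known folds. Alternatives were plain totals, DESeq2 1.42.0 size factors, all reads as denominator, the unstranded column, a pseudocount of 1, other thresholds and each library alone; TMM over 404 genes kept by filterByExpr and the sum without Mir195a were chosen after seeing the data. Genes named were the members, genes of the same seed or extended family, genes opposite a member, neighbours in rank and genes of the cell type marker lists. Members and lists were chosen with earlier results of these data known.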

Additional observations from a re-analysis of the deposited data

Results flagged for a closer look

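Counts other than sense counts exceeded the limit of 3 at the locus of Mir497. The gene opposite it, Mir497b, had 5464 opposite-strand counts in replicate 1 and 2208 in replicate 2, equal to the sense counts of Mir497. Reads with several places in the genome, among which reads of miR-16-5p would be listed, numbered 6203588 in replicate 1 and 5928954 in replicate 2. They are not split by gene.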

How the results depend on the processing

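Leaving out 1 library each gives the other library's value, so it cannot show stability. The summed level ran from 2148 to 8786 CPM. The log2 ratio of Mir15a over Mir16-1 ran from 0.70 to 1.76, that of Mir15b over Mir16-2 from -0.06 to 1.27 and that of Mir195a over Mir497 from 0.80 to 2.49. All 6 genes stayed expressed at 1 and at 10 CPM and with each library alone. In the unstranded column 5 of the 6 were expressed. The log2 ratio of Mir16-2 turned from -0.07 to 0.06 on plain totals, and no other member's ratio changed direction under another scaling. On plain totals Mir497 passed 2-fold, with a log2 ratio of 1.09. With no filter other than a count in either library, 336 of 771 genes lay over 2-fold apart, against 99 of 409 expressed genes; more genes with few counts entered. With all reads as denominator, every level was lower and the summed level was 1904 CPM, against 5467 CPM on sense counts. Mir195a stood at 1186 CPM and Mir15a at 254.0 CPM, and levels moved beyond their spread for Mir16-1 (95.3 CPM), Mir15b (61.6 CPM), Mir16-2 (36.3 CPM) and Mir497 (270.4 CPM). In the unstranded column Mir497 had 0 CPM, so its ratios could not be computed there, and Mir16-2 stood at 112.6 CPM. No paired analysis was possible because the labels give 1 group. Depth did not limit the 6 genes, whose lowest count was 436 (Mir15b, replicate 2), while 2 libraries limit every statement on their spread.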
